A study of Mus musculus with 10 samples.

Results

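Long intergenic noncoding RNAs (lincRNAs) are transcripts annotated as lying between genes and coding for no protein, and most of them contain open reading frames (ORFs). The ORFs of at least 100 nt on lincRNAs were examined here with ribosome profiling in the mouse embryonic stem cell line CGR8, before and after 3 translation inhibitors. An ORF was a member if its transcript has the gene type lincRNA in GENCODE M21, the mouse gene annotation, and if it spans 100 nt or more. Malat1, Gas5 and the Snhg snoRNA host genes were left out. This gave 5019 ORFs on 247 lincRNA transcripts, of 75579 ORFs on 15269 transcripts listed in all. The members were 102 to 975 nt long with a median of 153 nt, and a lincRNA held between 1 and 220 of them, with a median of 15. Many of these ORFs overlap, so that a footprint can count for several members. For single lincRNAs, 1 representative ORF is therefore described, the member with most reads summed over the 8 ribosome profiling libraries.

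The cells carry no genetic change in the labels and were grown without feeder cells in serum and leukemia inhibitory factor. Footprints were collected in 4 conditions with 2 biological replicates each, namely without inhibitor (control), after 10 min in 1 µM DMDA-PatA, after 10 min in 2 µg/ml harringtonine and after 20 min in 0.2 mg/ml puromycin. DMSO was brought to the same amount in all samples, and cycloheximide was present in every sample from the cooling of the cells onward. A further 2 libraries held fragmented whole transcriptome RNA of untreated cells. No library analysed here separates ribosome footprints from other RNase-resistant fragments, and the values hold both.

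During translation a ribosome shields a stretch of mRNA from RNase, and the sequenced fragment, the footprint, marks where it stood. DMDA-PatA, an analog of the marine compound pateamine A, acts on eIF4A, the helicase of the cap-binding complex, and blocks initiation before scanning. Harringtonine acts on ribosomes in their earliest elongation steps, while ribosomes further on run off. Puromycin mimics an aminoacyl-tRNA and releases the growing chain. Footprints left by moving ribosomes can be lost with these drugs, whereas fragments shielded by RNA structure or by other proteins need not be. The study reports that harringtonine and puromycin had little effect on footprints at start codons, and puromycin little on short ORFs. Footprints can therefore remain on translated short ORFs with either drug. Few lincRNAs have a known peptide product.

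The sequences around the start codons of 12 representative ORFs that the results below turn on are shown first, since start codon and context were not used to choose them. They were read from the M21 transcripts (GRCm38, mm10), 5′ to 3′ on the strand of the transcript, with T for U. The start codon is in capitals, 9 bases before it and 18 after it are in lower case.
1810058I24Rik: accgacatcATGctccagttcctgcttgga
Gm1070: gtcagcgtgATGgaagaggctcaggccaat
Lncenc1: cctggttggATGgaagaagataggaagcag
Pvt1: aaggccaggATGaagagaagctacgaactt
AU020206: gtgcgtgagCTGcatggtaccagagcacca
Gm2694: gcagcggggCTGggctccggccgggagtca
Platr3: agcgatcaaCTGgttgacctatatgtgaga
Platr20: gcaacaggaCTGagtgaacatggactgaaa
Platr26: ctctgccagATGcttcagtgtctcccagga
Neat1: agggctcagATGagagaggtggcagaatta
H19: cagaaagacATGacatggtccggtgtgatg
Mir17hg: tttgtcgcaATGctgtgtttctctgtatgg
A strong context for initiation has a purine 3 bases before the start codon and a G right after it. Of these 12 ORFs, Gm1070 and Gm2694 have both. Among the 52 representatives above the footprint cutoff given below for which a context could be read, 31 had a purine at the former position, 13 a G at the latter and 9 both.

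Depth limited what could be seen. The control libraries held 9022894 and 10522777 reads on coding sequences, the drug libraries 608623 to 1902839 and the transcriptome libraries 16534120 and 37777972. Only 7363 to 21033 reads per ribosome profiling library fell on the lincRNA transcripts with members. All 8 listed pluripotency markers were covered, with 221 to 12115 normalized control footprints on their coding sequences. Markers of other cell types were also present. All 4 fibroblast markers exceeded 4 control footprints and ranged from 7.25 to 14942, and so did 4 endoderm markers from 5.94 to 44.4, 3 mesoderm markers from 19.2 to 980 and 3 ectoderm markers from 4.49 to 1778. The part of such cells in the values below was not tested. A normalized footprint is a read scaled by the authors to equal spike-in RNA per library, and errors are the SD of 2 libraries.

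Footprints were rare on these ORFs. The mean of the control libraries exceeded 4 normalized footprints on 333 ORFs, 6.63% of all members, which lie on 60 lincRNAs, 24.3% of those with members. It exceeded 20 on 105 ORFs of 20 lincRNAs. No control read at all was found on 3801 members, and 67 lincRNAs had none on any member. The ORFs just inside the cutoff, on 1700003M07Rik, 1700020I14Rik and 1700086P04Rik, had 3 and 5 control reads and a mean of 4.03, and the one just outside, on 4833407H14Rik, had 6 and 1 reads and a mean of 3.99. The cutoff therefore parts ORFs that differ by less than counting error.

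Members above the cutoff were unevenly spread. Lncenc1 alone held 41 of them, the median lincRNA held 4 and 19 lincRNAs held 1. A start codon and a stop codon were found at the listed positions for 310 of the 333, with AUG in 98 and CUG in 212, so that AUG made up 31.6%. Over the 4477 members with matching positions AUG made up 36.3%. For 1 ORF per lincRNA the split was 24 AUG and 30 CUG. Of the 60 lincRNAs, 8 were listed with a single ORF in the manner of coding transcripts, and RefSeq calls 3 protein coding (1810058I24Rik, Gm1070 and Tmem250-ps). The transcripts of 3 of the 60 overlap exons of a coding gene on the same strand, and for Gm38399 this holds for 134 bases of its ORF, shared with an exon of Nav1.

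**Figure D1:**
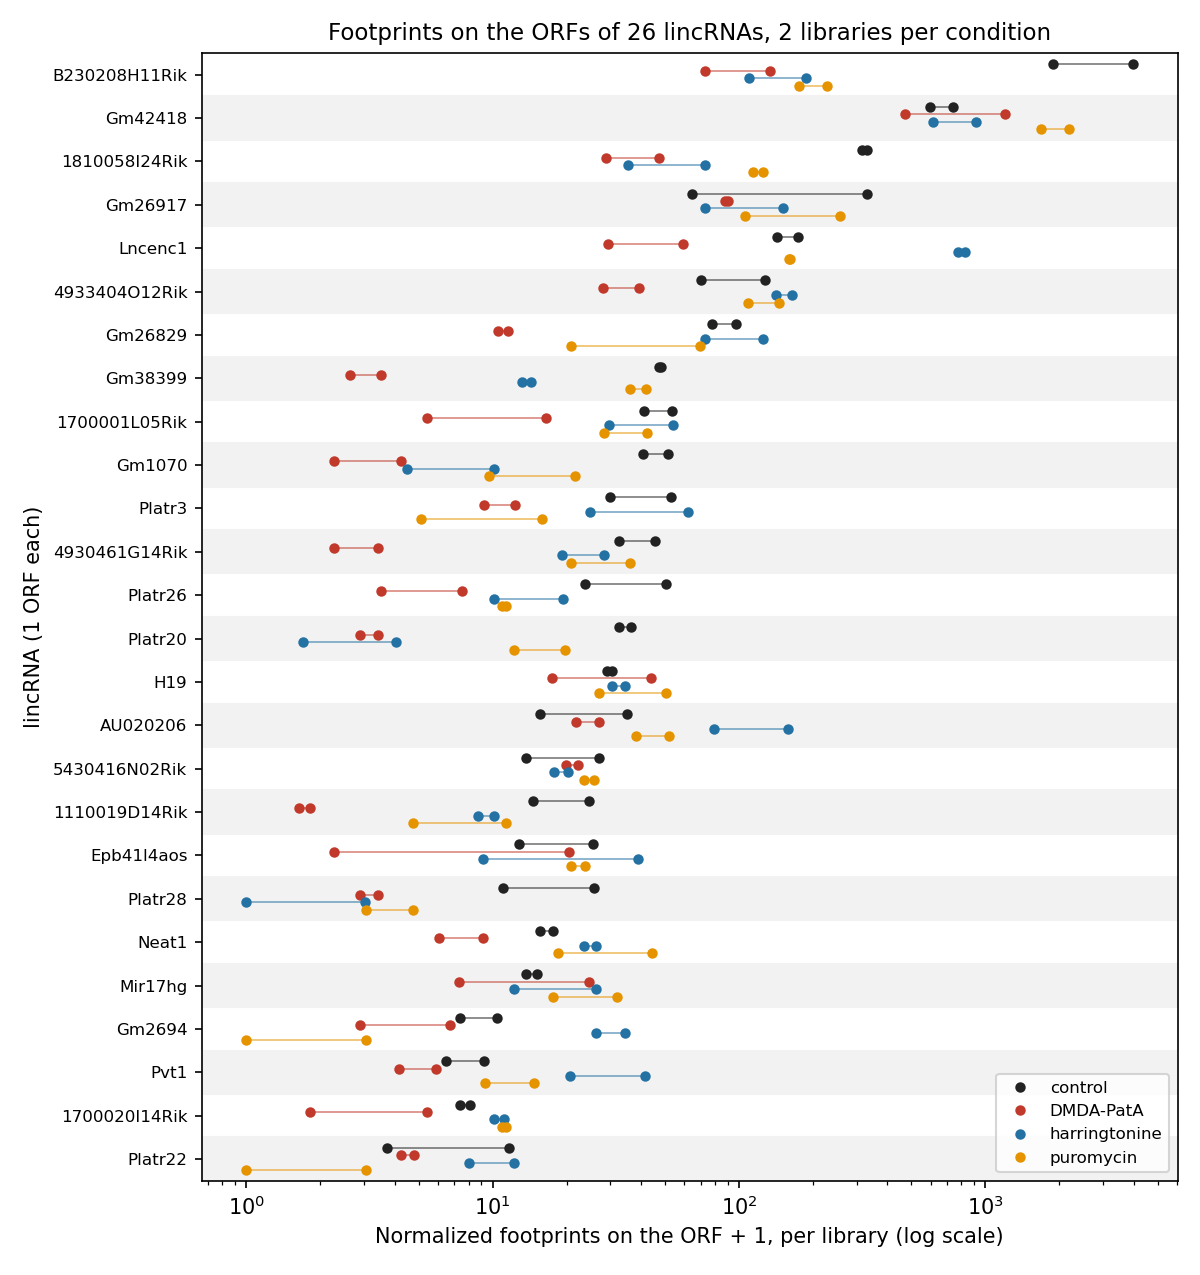
Normalized footprints plus 1 (x axis, log scale) on the representative ORF of 26 lincRNAs (y axis), 1 point per library and 2 joined points per condition, with colours for control, DMDA-PatA, harringtonine and puromycin. The DMDA-PatA points of 1810058I24Rik, Gm1070, Platr20 and 1110019D14Rik lie far to the left of their control points, those of H19, Mir17hg and 5430416N02Rik lie among them, and the harringtonine points of Lncenc1, AU020206, Pvt1 and Gm2694 lie to the right.

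The 2 highest levels were on lincRNAs that overlap genes of structured RNAs, B230208H11Rik and Gm42418. B230208H11Rik (chr10:12922426-12922657, minus strand, 2 exons) led with 1883 and 3981 normalized control footprints on a CUG ORF of 117 nt. Its transcript had only 10 and 23 transcriptome reads on that ORF, and its footprint density relative to RNA was 550 ± 318 times that of the median coding sequence. Within this ORF lies an ORF of 27 nt starting with AUG, below the length limit, that took 1572 of the 1597 and 4330 of the 4392 control reads. These bases lie in n-TLtaa3, a leucine tRNA gene on the same strand (chr10:12922571-12922653), which covers 80 bases of the representative. The short ORF and its stop codon are shown because they hold nearly all reads, with its start codon in capitals.
B230208H11Rik short ORF: ATGgccgagtggttaaggcgttggacttaa
With the inhibitors the representative kept 72.0 and 133 footprints in DMDA-PatA, 187 and 109 in harringtonine and 174 and 228 in puromycin. Every drug library lay below both control libraries. All 14472 ORFs that reached 10 reads in 2 or more libraries were fitted together by the quasi-likelihood test of edgeR, with p-values adjusted after Benjamini and Hochberg (edgeR adjusted p from here on). The log2 fold change was -4.84 (SE 0.52, edgeR adjusted p = 8.70e-20) with DMDA-PatA. It was -4.31 (SE 0.51) with harringtonine and -3.86 (SE 0.50) with puromycin.

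Gm42418 and Gm26917 lie in one stretch of chromosome 17 with Rn18s-rs5, a RefSeq pseudogene of 18S ribosomal RNA. Of the 1831 exon bases of Gm42418, 1245 fall inside it, and Gm26917 ends 108 bases before it. Gm42418 took 48.0% and 53.4% of all control reads on the lincRNA transcripts with members, and 40.6% to 87.0% in the drug libraries. Its representative ORF (chr17:39848588-39848716) lies outside Rn18s-rs5, which ends at 39848202. On the opposite strand 78 of its bases are annotated as the rRNA CT010467.1. The ORF held 593 and 739.7 footprints in the control, 471 and 1196 in DMDA-PatA, 915 and 612 in harringtonine and 1677 and 2193 in puromycin. The first 3 conditions overlapped and the puromycin libraries lay above all others. DMDA-PatA left a log2 fold change of 0.32 (SE 0.45, edgeR adjusted p = 0.478), and puromycin raised it by 1.54 (SE 0.46, edgeR adjusted p = 0.00106), a call lost without control replicate 1 (edgeR adjusted p = 0.0627). Gm26917 had 331 and 63.5 control footprints and 89.6 and 86.8 with DMDA-PatA. All 6 drug libraries lay between its control libraries, and its log2 fold change of -1.15 with DMDA-PatA (edgeR adjusted p = 0.00805) turned to 0.48 without control replicate 1. The counts of calls are therefore also given without these 3 lincRNAs.

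Only 196 members on 36 lincRNAs had enough reads for the test, and 4823 had not. The filter asked for reads in any 2 of the 8 libraries. Through the control libraries alone 41 members passed it, among them the representatives of Platr20 and Platr28, through the harringtonine libraries alone 6 passed, among them those of Gm2694, Platr22, Bvht and 1700020I14Rik, and through the DMDA-PatA libraries alone 1 passed. Counting also those with a single other library at 10 reads, 66 members would not have passed without the control, 16 without harringtonine, 15 without puromycin and 2 without DMDA-PatA. The representatives of Gm1070, 1110019D14Rik, 4933427D06Rik and Gm4349 are then among the first, and those of Pvt1, Gm12319 and C920006O11Rik among the second. Such members had to differ in that direction, so the counts that follow describe the tested members and support nothing beyond them. For a representative that needed a condition to pass, the p-values of that condition are given from the fit with no filter on reads and are named so.

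DMDA-PatA lowered 151 of the 196 tested members, on 26 lincRNAs, at an edgeR adjusted p below 0.05. Over all 14472 ORFs tested, 96.9% were lowered and 0.359% raised. It raised 6 members, 5 on Gm42418 and 1 on 1700020I14Rik. The median log2 fold change of the members was -2.74, against -4.26 for all ORFs. Harringtonine lowered 97 members on 16 lincRNAs and raised 8 on 6 lincRNAs, with 89.0% of all ORFs lowered and 1.10% raised. Here the medians were -1.12 for members and -2.96 for all ORFs. Puromycin lowered 80 members on 18 lincRNAs and raised 13, all on Gm26917 and Gm42418, with 85.2% of all ORFs lowered and 0.850% raised. Its medians were -0.96 and -2.46. The share of members lowered was thus below that of all ORFs with each drug. It was 77.0%, 49.5% and 40.8% for DMDA-PatA, harringtonine and puromycin. Among tested coding sequences shorter than 300 nt it was 98.4%, 53.5% and 41.3%, so that against these the members were clearly lower with DMDA-PatA only. These directions hold on the spike-in scale. When libraries were scaled to each other by TMM, the median of all ORFs moved to -0.09, -0.02 and 0.03 for the 3 drugs and that of the members to 1.39, 1.92 and 1.49, and 0, 8 and 1 members were lowered and 89, 128 and 110 raised.

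The representatives are chosen by reads summed over all 8 libraries, drugs included, which favours ORFs that keep or gain reads with a drug. Of the 36 tested, DMDA-PatA lowered 23 and raised 0, harringtonine lowered 10 and raised 4, and puromycin lowered 12 and raised 1. Their median log2 fold changes were -1.72, 0.08 and -0.30. When only the ORF with most reads of each transcript was tested, with ORFs of any length in the choice, 29 members remained, of which 23, 10 and 12 were lowered and 0, 4 and 0 raised. Of 310 tested annotated coding sequences shorter than 300 nt, DMDA-PatA lowered 305, harringtonine 166 and puromycin 128, with medians of -3.56, -1.01 and -0.86. Without B230208H11Rik, Gm42418 and Gm26917 146, 91 and 79 of 173 members were lowered by the 3 drugs in this order and 1, 7 and 0 raised, a choice made after the data were seen.

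The level could be read on all 333 members above the cutoff, tested or not. The median fold inhibition, the ratio of the mean control to the mean drug footprints, was 7.61 with DMDA-PatA (12.1 and 4.69 in the replicate pairs), 2.85 with harringtonine (2.71 and 2.59) and 2.07 with puromycin (2.57 and 2.10). DMDA-PatA was the most variable between replicates. For 1 ORF on each of the 60 lincRNAs the medians were 4.59, 1.65 and 1.47. The 349 coding sequences shorter than 300 nt above the cutoff had medians of 12.3, 2.10 and 1.82, and the 13283 coding sequences of any length 20.0, 7.74 and 5.57. The cutoff uses the control libraries, which also form the numerator, so that all these ratios lean upward for ORFs near it.

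**Figure D2:**
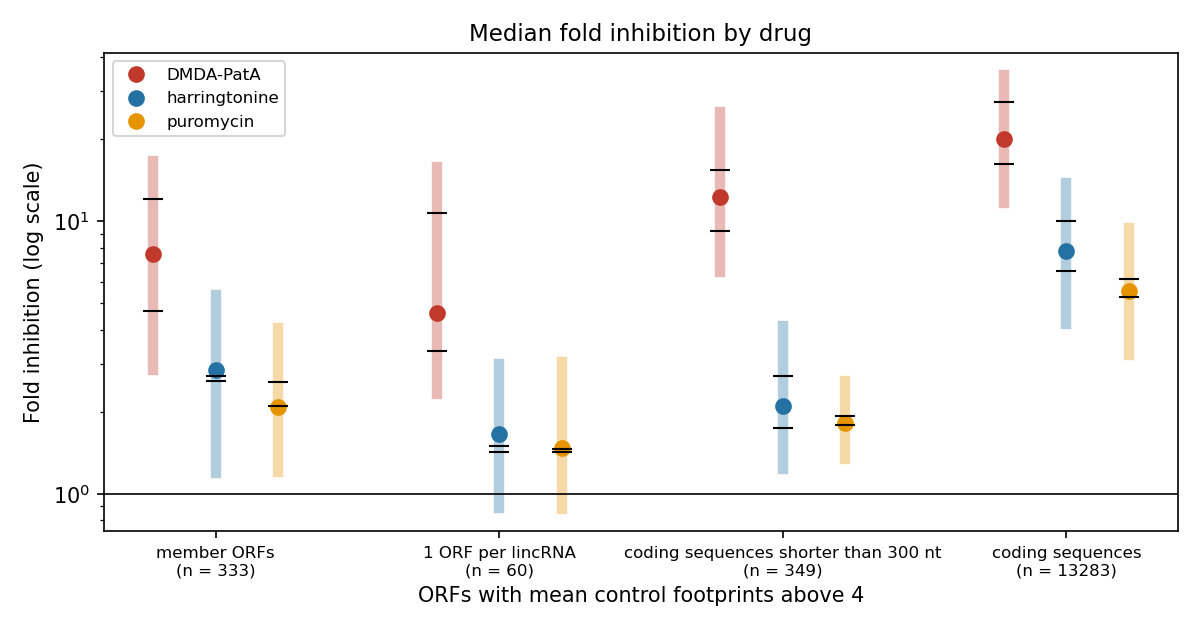
Median fold inhibition (y axis, log scale) by DMDA-PatA, harringtonine and puromycin on the spike-in scale for the member ORFs, for 1 ORF per lincRNA and for annotated coding sequences, all with mean control footprints above 4. Circles are medians of the replicate means, black ticks the medians of each replicate pair and shaded bars the quartiles, and the lincRNA medians with DMDA-PatA, 7.61 and 4.59, lie under the 12.3 of short coding sequences. With libraries set to equal coding reads, the 3 medians of the member ORFs fell to 0.380, 0.421 and 0.362, below 1.

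Directly compared with the other drugs, DMDA-PatA was lower on a smaller share of the tested members than of all ORFs. Against harringtonine it was lower on 81 members (41.3%) of 26 lincRNAs and higher on 6, with 47.7% of all ORFs lower and 0.594% higher. Against puromycin it was lower on 95 members (48.5%) of 23 lincRNAs and higher on 5, with 61.6% and 1.13% in all ORFs. The medians of the members were -1.09 and -1.47, those of all ORFs -1.29 and -1.69. For 1 ORF per lincRNA, 23 and 20 of 36 were lower with DMDA-PatA and 0 were higher in either comparison. Of these 36, 7 needed the harringtonine libraries to pass the filter, which favours a lower value with DMDA-PatA in the comparison with harringtonine. Without B230208H11Rik, Gm42418 and Gm26917 it was lower on 79 and higher on 1 member against harringtonine, and lower on 79 and higher on 0 against puromycin. When harringtonine and DMDA-PatA swapped their size factors, DMDA-PatA was lower than harringtonine on 58 members and higher on 7, and the median of the members was -0.67. The factors of these drugs may have been exchanged in a supplementary sheet of the study, and which assignment holds was not settled. These splits too depend on the scale, since with TMM 25 members were lower and 19 higher against harringtonine, and 8 lower and 27 higher against puromycin.

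**Figure D3:**
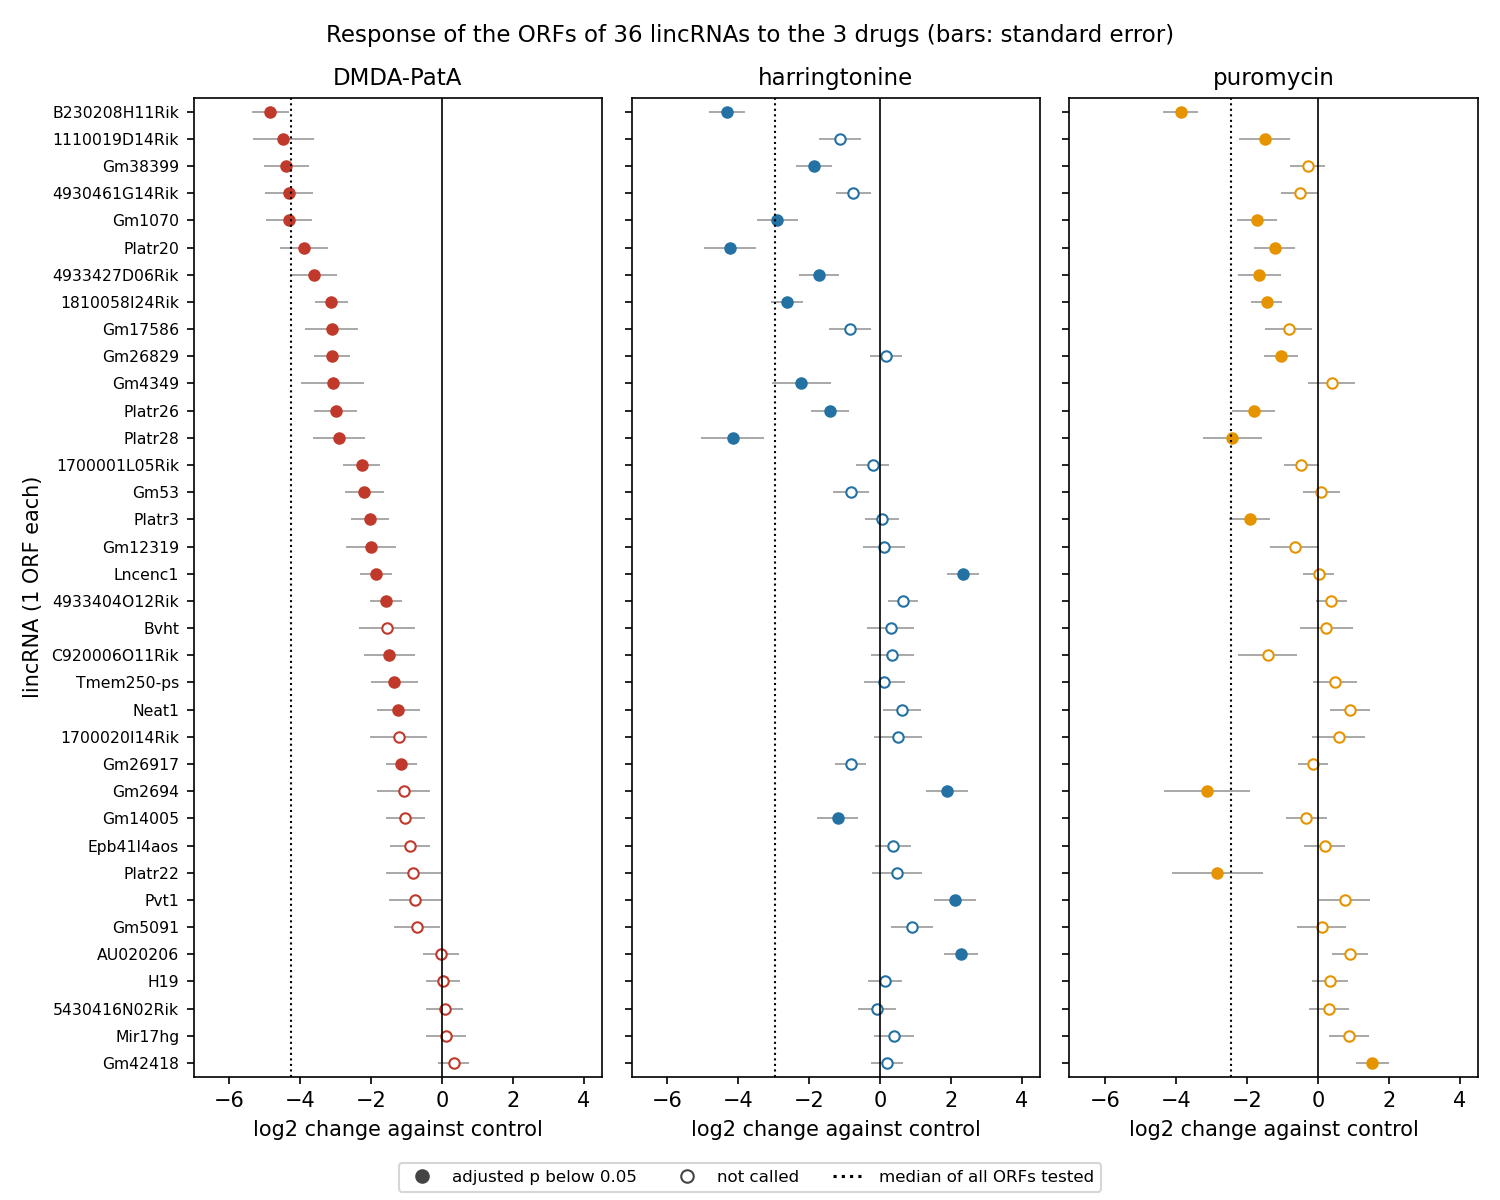
Log2 fold change against control (x axis) of the representative ORFs of 36 lincRNAs (y axis, ordered by DMDA-PatA) for each drug on the spike-in scale, with standard errors as bars and filled circles for an adjusted p below 0.05. The dotted line is the median of all 14472 ORFs, at -4.26, -2.96 and -2.46, and most lincRNAs lie to its right, 4 of them raised by harringtonine, while with TMM scaling the line moves to -0.09, -0.02 and 0.03 and the lincRNAs move with it.

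The tested representatives fell into classes by their calls. All 3 drugs lowered 7 of them, on B230208H11Rik, 1810058I24Rik, Gm1070, Platr26, Platr20, 4933427D06Rik and Platr28. DMDA-PatA and harringtonine lowered Gm38399 and Gm4349, and DMDA-PatA and puromycin lowered Gm26829, Platr3 and 1110019D14Rik. These are calls of the filtered fit. Gm1070, Platr20, 4933427D06Rik, Platr28, Gm4349 and 1110019D14Rik needed the control libraries to pass that filter, so a decrease was largely fixed for them. With no filter puromycin had no call on Platr20 (edgeR adjusted p = 0.0563) or 1110019D14Rik (edgeR adjusted p = 0.0602). Only DMDA-PatA had a call on 10, namely Gm26917, 4933404O12Rik, 1700001L05Rik, 4930461G14Rik, Gm53, Gm17586, Neat1, Gm12319, Tmem250-ps and C920006O11Rik. No drug had a call on 7, which were H19, 5430416N02Rik, Epb41l4aos, Mir17hg, Gm5091, Bvht and 1700020I14Rik. Gm14005 was lowered by harringtonine only. Its CUG ORF of 360 nt had 23 and 21 control reads, 16 and 15 after DMDA-PatA, 15 and 8 after harringtonine and 7 and 17 after puromycin. The log2 fold change with harringtonine was -1.19 (SE 0.57, edgeR adjusted p = 0.0396) and with DMDA-PatA -1.04 (SE 0.55, edgeR adjusted p = 0.0592). That call was lost with DESeq2, with no filter and without either control library or harringtonine replicate 2. Gm14005 was named after its values were seen. The other 6 representatives, on Lncenc1, AU020206, Pvt1, Gm2694, Platr22 and Gm42418, are described in turn. A call with one drug and none with another was not tested as a difference between drugs, apart from the comparisons above.

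1810058I24Rik, which RefSeq lists as protein coding, had the highest level outside the tRNA and rRNA loci. Its AUG ORF of 141 nt (chr6:35252768-35261230, plus strand, 3 exons) held 330.1 and 315 control footprints, 27.8 and 46.3 after DMDA-PatA, 72.0 and 34.3 after harringtonine and 124 and 113 after puromycin. All drug libraries lay below both controls. The replicates were close in the control and with puromycin, and further apart with DMDA-PatA and harringtonine. The log2 fold changes were -3.13 (SE 0.46, edgeR adjusted p = 2.67e-11), -2.61 (SE 0.45, edgeR adjusted p = 1.86e-08) and -1.44 (SE 0.44, edgeR adjusted p = 0.0014). The ORF covers 5.59% of the transcript and took 62.8% and 69.4% of its control footprints, but 15.8% and 15.2% of its transcriptome reads.

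Gm1070, also protein coding in RefSeq, has an AUG ORF of 582 nt in 1 exon (chr6:71300125-71300706, plus strand). It held 50.7 and 39.9 control footprints, 1.26 and 3.25 after DMDA-PatA, 9.13 and 3.50 after harringtonine and 20.7 and 8.70 after puromycin. Each drug condition lay below the control without overlap. DMDA-PatA lowered it by a log2 fold change of -4.32 (SE 0.62, edgeR adjusted p = 8.93e-12 with no filter), near the median of all ORFs. Harringtonine gave -2.89 (SE 0.55) and puromycin -1.70 (SE 0.54), and the latter call was lost without control replicate 1 or puromycin replicate 2. Gm38399, whose AUG ORF of 711 nt shares 134 bases with a Nav1 exon, went from 47.2 and 46.2 control footprints to 2.53 and 1.62 with DMDA-PatA and to 12.2 and 13.3 with harringtonine, log2 fold changes of -4.39 (SE 0.65) and -1.86 (SE 0.52). Puromycin left 35.2 and 41.0 (log2 fold change -0.28, edgeR adjusted p = 0.585).

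The pluripotency-associated lincRNAs, which are named Platr for their expression in undifferentiated cells and here include Lncenc1, a lincRNA abundant in embryonic stem cells, made up the best represented of the gene groups. Of 12 listed, 9 exceeded the cutoff and 6 were tested. DMDA-PatA lowered 5 of the 6, harringtonine lowered 3 and raised 1, and puromycin lowered 5, of which Platr20 and Platr22 had no call with no filter. Over all ORFs tested 96.9%, 89.0% and 85.2% were lowered by these drugs and 1.10% raised by harringtonine, and Platr20 and Platr28 passed the filter through the control alone. On the TMM scale none of them was lowered by DMDA-PatA. Platr26 has an AUG ORF of 360 nt in 4 exons (chr2:71719443-71730711, plus strand) with 49.5 and 22.7 control footprints, against 2.53 and 6.49 after DMDA-PatA, 18.3 and 9.10 after harringtonine and 10.3 and 9.95 after puromycin. The log2 fold changes were -3.002 (SE 0.60), -1.41 (SE 0.53) and -1.80 (SE 0.60). Without control replicate 1, the higher of the controls, the calls with harringtonine and puromycin were lost, and that with harringtonine also with DESeq2 (adjusted p = 0.0866) and without harringtonine replicate 2 (edgeR adjusted p = 0.102).

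Platr3, which RefSeq also lists as Gm14074, carries a CUG ORF of 138 nt in 3 exons (chr2:135648952-135651545, plus strand). It had 51.9 and 29.0 control footprints, 8.21 and 11.4 after DMDA-PatA, 60.9 and 23.8 after harringtonine and 4.14 and 14.9 after puromycin. The harringtonine libraries spanned the controls, while those of the other drugs lay below them. DMDA-PatA gave a log2 fold change of -2.03 (SE 0.53, edgeR adjusted p = 0.000123) and puromycin -1.92 (SE 0.58, edgeR adjusted p = 0.0014), which lost its call without control replicate 1 or puromycin replicate 1. Harringtonine gave 0.05 (SE 0.47), and this value changed sign with limma, with exchanged size factors and without control replicate 2. Platr28, with 24.8 and 9.97 control footprints, kept 1.89 and 2.44 after DMDA-PatA, 2.03 and 0 after harringtonine and 2.07 and 3.73 after puromycin. Its calls rest on 0 to 3 reads per drug library and on a filter passed through the control alone. The CUG ORF of Platr22 was lowered by puromycin only (9 and 3 control reads, 1 and 0 with puromycin, log2 fold change -2.83, edgeR adjusted p = 0.0333). DESeq2, the fit with no filter (edgeR adjusted p = 0.0524) and the loss of control replicate 1 or puromycin replicate 2 each ended the call. Platr27, Platr5 and Platr11 were not tested. Platr27 had 2 and 9 control reads and a single read over the 6 drug libraries, Platr5 had 4 and 6 control reads and 0 to 4 in the drug libraries, and Platr11 had 3 and 6 against 2 to 5.

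Platr20 is described by 2 members that each passed the filter through 1 condition alone, so that their directions were largely fixed. Its representative CUG ORF of 282 nt in 3 exons (chr11:51190304-51214177, minus strand) had 35.4 and 31.7 control footprints, 1.89 and 2.44 after DMDA-PatA, 3.04 and 0.700 after harringtonine and 18.6 and 11.2 after puromycin. It passed the filter through the control alone. Its log2 fold change was -3.90 with DMDA-PatA (SE 0.63, edgeR adjusted p = 1.60e-09 with no filter) and -4.22 with harringtonine (SE 0.68, edgeR adjusted p = 2.28e-09 with no filter). The value with puromycin, -1.22 (SE 0.54), had no call with no filter (edgeR adjusted p = 0.0563), DESeq2 or limma. A second member lies upstream of it, an AUG ORF of 123 nt at transcript positions 18 to 140. It is shown because its reads were distributed otherwise among the conditions, and it was chosen after its values were seen.
Platr20 upstream ORF: gctactgtgATGcggagaaagttggacgta
It had 7 and 3 control reads, 3 and 6 after DMDA-PatA, 25 and 14 after harringtonine and 5 and 9 after puromycin, so that harringtonine was the highest condition. The log2 fold change with harringtonine was 1.68 (SE 0.66). It passed the filter through the harringtonine libraries alone, so that no test is given for it.

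Harringtonine raised 4 representatives, of which Lncenc1 is the most abundant and Pvt1 and Gm2694 needed the harringtonine libraries to pass the filter. The AUG ORF of Lncenc1 starts 17 bases into the transcript and is 150 nt long, in 3 exons (chr13:97482717-97494409, plus strand). It held 173 and 141 control footprints, 28.4 and 58.4 after DMDA-PatA, 770.1 and 824 after harringtonine and 159 and 160.4 after puromycin. No harringtonine or DMDA-PatA library overlapped the controls, while puromycin lay between them. Harringtonine gave a log2 fold change of 2.34 (SE 0.45, edgeR adjusted p = 3.94e-07) and DMDA-PatA -1.86 (SE 0.46, edgeR adjusted p = 6.34e-05). Between the 2 drugs the difference was -4.21 (SE 0.50, edgeR adjusted p = 1.08e-14). The ORF took 26.2% and 24.8% of the transcript's footprints in the control and 77.9% and 86.7% with harringtonine, and 2.34% and 2.21% of its transcriptome reads.

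AU020206, Pvt1 and Gm2694 shared this direction with harringtonine at lower depth. AU020206 has a CUG ORF of 123 nt in 2 exons (chr7:75780641-75782058, minus strand) with 34.2 and 14.5 control footprints, 20.8 and 25.97 after DMDA-PatA, 157 and 78.4 after harringtonine and 37.2 and 51.0 after puromycin. Its log2 fold change was 2.29 with harringtonine (SE 0.48, edgeR adjusted p = 3.69e-06) and -0.03 with DMDA-PatA (SE 0.51, edgeR adjusted p = 0.949). Its DMDA-PatA libraries lay between the controls. Pvt1, a neighbour of Myc, has an AUG ORF of 138 nt in 2 exons (chr15:62038090-62107173, plus strand). Of its bases 112 are also annotated as Gm27913, which has the type misc_RNA in M21. It had 7 and 6 control reads, 5 and 6 after DMDA-PatA, 40 and 28 after harringtonine and 4 and 11 after puromycin. Harringtonine raised it by 2.12 on the log2 scale (SE 0.56, edgeR adjusted p = 0.00043 with no filter), a call lost without control replicate 2 (edgeR adjusted p = 0.0577), and the ORF's share of the transcript's footprints was 18.9% and 19.4% in the control and 69.0% and 62.2% with harringtonine.

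The CUG ORF of Gm2694 (195 nt, 2 exons, chr8:87472824-87521793, plus strand) had 8 and 7 control reads, 3 and 7 after DMDA-PatA, 33 and 36 after harringtonine and 1 and 0 after puromycin. Harringtonine raised it by 1.89 (SE 0.55, edgeR adjusted p = 0.00149 with no filter) and puromycin lowered it, with a log2 fold change of -3.12 (SE 1.21, edgeR adjusted p = 0.0126). The call with harringtonine was lost without control replicate 2, and that with puromycin with DESeq2 and without control replicate 1 or puromycin replicate 2. DMDA-PatA against harringtonine gave -2.32 (SE 0.47, edgeR adjusted p = 8.48e-06) for AU020206. With no filter it gave -2.87 (SE 0.57) for Pvt1 and -2.97 (SE 0.58) for Gm2694, with edgeR adjusted p of 1.12e-05 and 8.02e-06.

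A further class was called with DMDA-PatA and had no call with harringtonine. The CUG ORF of 4933404O12Rik (327 nt, chr5:136919253-136925730, plus strand) had 126 and 68.9 control footprints, 27.1 and 38.1 after DMDA-PatA, 163 and 141 after harringtonine and 108 and 144 after puromycin. DMDA-PatA alone lay below both controls, with a log2 fold change of -1.58 (SE 0.46, edgeR adjusted p = 0.000599) that was not called without control replicate 1 (edgeR adjusted p = 0.0927). 1700001L05Rik (210 nt, CUG, chr15:83367022-83367231, minus strand) went from 40.1 and 52.6 to 4.42 and 15.4 with DMDA-PatA, a log2 fold change of -2.27 (SE 0.52, edgeR adjusted p = 1.61e-05), against -0.21 with harringtonine and -0.47 with puromycin. For Gm26829 (261 nt, CUG, chr11:22600591-22610462, minus strand) the DMDA-PatA libraries, at 9.47 and 10.6, lay far below the controls, at 96.7 and 77.1, and the log2 fold change was -3.10 (SE 0.52, edgeR adjusted p = 2.87e-09). Harringtonine left it at 124 and 72.1. Puromycin, at 68.2 and 19.9, gave -1.04 (edgeR adjusted p = 0.0362), a call lost with DESeq2, with no filter and without either control library or puromycin replicate 2.

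The ORF of 4930461G14Rik, whose start codon could not be matched on the M21 transcript, had 44.8 and 31.7 control footprints and 1.26 and 2.44 with DMDA-PatA (log2 fold change -4.32, SE 0.68, edgeR adjusted p = 2.50e-10). Harringtonine left 27.4 and 18.2 and puromycin 35.2 and 19.9. 1110019D14Rik has an AUG ORF of 132 nt in 1 exon (chr6:13895130-13895261, plus strand) with 20 and 15 control reads and 1 read in each DMDA-PatA library (log2 fold change -4.47, SE 0.82, edgeR adjusted p = 1.07e-07 with no filter). Its value with puromycin, -1.50 (SE 0.67), had no call with no filter (edgeR adjusted p = 0.0602) or DESeq2. With 9 and 11 reads harringtonine gave -1.12 (SE 0.58, edgeR adjusted p = 0.101 with no filter).

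Neat1, the scaffold of nuclear paraspeckles, held 220 members, of which 3 exceeded the cutoff. The representative, an AUG ORF of 237 nt near the 5′ end (chr19:5845171-5845407, minus strand), had 16.5 and 14.5 control footprints, 5.05 and 8.12 after DMDA-PatA, 25.4 and 22.4 after harringtonine and 43.4 and 17.4 after puromycin. Its footprint density relative to RNA was 0.126 ± 0.0206 times that of the median coding sequence. A log2 fold change of -1.24 with DMDA-PatA (SE 0.61, edgeR adjusted p = 0.0423) was just inside the threshold and lost its call with DESeq2, limma, no filter and exchanged size factors and without either control or DMDA-PatA replicate 1. With its group of 6 abundant or conserved lincRNAs, of which 4 exceeded the cutoff and were tested, DMDA-PatA lowered 1 and harringtonine raised 1, Pvt1, where 96.9% of all ORFs were lowered by DMDA-PatA and 1.10% raised by harringtonine.

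Some lincRNAs with ample RNA showed no call. H19, an imprinted transcript that hosts a microRNA, had 4367 and 3072 normalized transcriptome reads on an AUG ORF of 171 nt in 2 exons (chr7:142576415-142576667, minus strand) and 29.5 and 28.1 control footprints, a density 0.0222 ± 0.00608 times that of the median coding sequence. The values were 16.4 and 43.0 after DMDA-PatA, 29.4 and 33.6 after harringtonine and 49.6 and 26.1 after puromycin. DMDA-PatA and puromycin spanned the controls. The log2 fold changes were 0.03 (SE 0.49), 0.14 (SE 0.49) and 0.35 (SE 0.51). Meg3 and Mirg, the other listed imprinted lincRNAs, had no member above the cutoff.

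Mir17hg, the host of the miR-17-92 cluster, was the only one of 5 listed microRNA hosts above the cutoff. Its ORF (162 nt, chr14:115044455-115044616, plus strand) overlaps the Mir92-1 hairpin by 52 bases. It had 14.1 and 12.7 control footprints, 6.31 and 23.5 after DMDA-PatA, 25.4 and 11.2 after harringtonine and 16.5 and 31.1 after puromycin, with log2 fold changes of 0.11 (SE 0.57), 0.41 (SE 0.56) and 0.88 (SE 0.58). The ORF took 5.58% and 4.81% of the transcript's footprints, less than its 11.1% and 12.8% of transcriptome reads. 5430416N02Rik held 25.9 and 12.7 control footprints and 18.9 and 21.1 with DMDA-PatA (0.08, SE 0.52), and Epb41l4aos 11.8 and 24.5 and then 1.26 and 19.5 (-0.91, SE 0.56). The replicates of Epb41l4aos were far apart in every condition but puromycin. Jpx and Ftx, lincRNAs of the X inactivation centre, had no member above the cutoff.

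The only member outside Gm42418 that was called raised by DMDA-PatA lies on 1700020I14Rik, and the filter largely fixed its direction. The representative of 1700020I14Rik had 7.07 and 6.35 control footprints and 4.42 and 0.812 with DMDA-PatA (log2 fold change -1.22, SE 0.80). A second CUG ORF at positions 74 to 217, chosen after its values were seen, had 4 and 1 control reads, 12 and 19 after DMDA-PatA, 5 and 2 after harringtonine and 0 and 6 after puromycin. Its log2 fold change with DMDA-PatA was 2.07 (SE 0.78). It passed the filter through the DMDA-PatA libraries alone, so that no test is given, and DESeq2 did not call it. For comparison, Mtln, formerly 1500011K16Rik and protein coding in M21 and thus no member, has an AUG ORF of 168 nt that held 226 and 155 control reads, 52 and 59 after DMDA-PatA, 151 and 308 after harringtonine and 86 and 135 after puromycin. DMDA-PatA lowered it by a log2 fold change of -2.33 (SE 0.45, edgeR adjusted p = 3.57e-07), while harringtonine and puromycin gave -0.14 and -0.23.

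Upstream of several of these ORFs, more footprints were counted with harringtonine than without inhibitor. Of 27 lincRNAs above the cutoff whose summed control and harringtonine means upstream of the representative exceeded 8, the upstream mean was above control in 20 with harringtonine, in 8 with DMDA-PatA and in 14 with puromycin, while the mean on the ORF itself was above control in 6, 4 and 9. That choice uses the harringtonine libraries and leaves out ORFs with little sequence before them, among them those of Lncenc1, AU020206, Pvt1 and Gm2694. Over all 60 lincRNAs the upstream mean was above control in 32, 16 and 17, and the mean on the ORF in 22, 4 and 21. Upstream of Gm1070, 2.54 ± 0.256 control footprints stood against 22.5 ± 4.08 with harringtonine. Upstream of 1810058I24Rik the values were 36.3 ± 1.27 and 83.6 ± 28.1, upstream of 4930461G14Rik 35.3 ± 6.53 and 96.1 ± 32.0, and upstream of 4933404O12Rik 1.95 ± 1.09 and 22.7 ± 12.3. The ORFs of the first 3 held fewer footprints with harringtonine than in the control, and that of 4933404O12Rik held more. These upstream sums were not tested.

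Footprints were more concentrated on the ORF than RNA reads. Across the 60 lincRNAs the representative ORF spans a median of 14.2% of the transcript. It took a median of 57.1% and 50.0% of the transcript's control footprints in the 2 replicates and 23.0% and 21.6% of its transcriptome reads. The share was higher in footprints in both replicates for 51 lincRNAs and lower for 6. Since the representative is the ORF with most footprint reads, a higher share is partly fixed by that choice and has no test. The median share was 38.8% and 42.9% after DMDA-PatA, 55.4% and 69.5% after harringtonine and 57.9% and 50.0% after puromycin. The footprint density per RNA read had a median of 1.14 relative to the median of 12754 coding sequences, above 1 in both replicates for 27 lincRNAs and below 0.1 for 4. The coding sequences needed a mean of at least 20 normalized transcriptome reads, while the lincRNAs had no such limit. The lincRNA ORFs were also chosen by their footprints. These ratios therefore lean upward, most of all where RNA reads are few, and do not show equal occupancy.

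**Figure D4:**
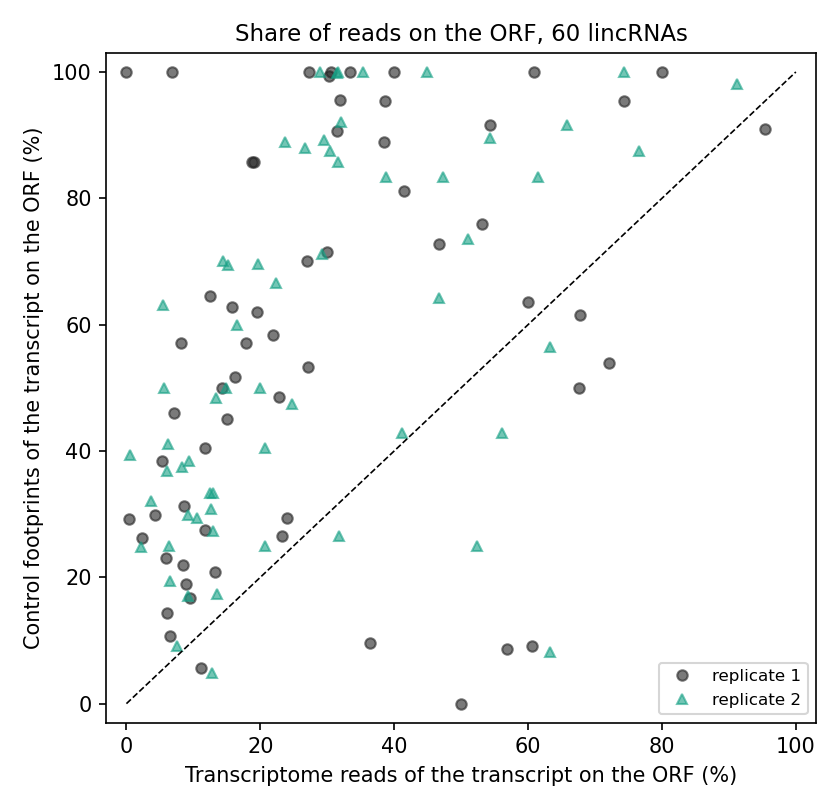
Share of a transcript's control footprints on its representative ORF (y axis, %) against the share of its transcriptome reads there (x axis, %), 1 point per lincRNA and replicate for 60 lincRNAs, with a dashed line of equal shares. Most points lie above the line, with medians of 57.1% and 50.0% on the y axis and 23.0% and 21.6% on the x axis.

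Inhibition was seen outside the ORF as well as on it. On 41 lincRNAs with more than 4 control footprints both on the ORF and on the rest of the transcript, DMDA-PatA left a median of 27.6% of the control level on the ORF and 27.7% outside it. Harringtonine left 78.6% and 72.1%, and puromycin 78.4% and 60.8%. In the separate replicates DMDA-PatA left 13.9% on the ORF and 19.7% outside in the first and 39.2% and 44.8% in the second. It left less on the ORF than outside on 27 lincRNAs in the first replicate and 23 in the second. The replicates thus differed more than the regions. The representative was chosen with the drug libraries included, which favours ORFs that keep reads, and the difference between regions was not tested. Other ORFs, among them short ones and members that overlap the representative in part, lie in the rest of these transcripts.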

How the data were processed

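Ribosome footprints of 4 conditions and whole transcriptome RNA of CGR8 cells were sequenced on a SOLiD instrument, 2 libraries each. The authors aligned reads to mm10, kept uniquely matching reads only, summed them over each ORF and its flanking regions and deposited a normalized read signal, scaled to equal spike-in RNA for footprints and between replicates for the transcriptome. The submitters' processing notes also name Picard 1.38. Divided by the value of a single read, the deposited signal came out whole within 0.02 reads for 100% of the values of each library, and whole reads and size factors were thus recovered. The planned count test was run on them. 

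edgeR 4.0.16 (quasi-likelihood test, Benjamini-Hochberg adjustment, limma 3.58.1, R 4.3.3) was fitted over all ORFs with at least 10 reads in at least 2 footprint libraries, the 4 conditions in one fit, with the authors' size factors and no covariate. An adjusted p below 0.05 was a call. Alternatives were TMM, DESeq2 1.42.0, limma on log2 of the value plus 1, other filters, 1 ORF per transcript, the replicate block, exchanged size factors of DMDA-PatA and harringtonine (as may be the case in a supplementary sheet of the study), and leaving out each library. The test was tried on simulated counts. Annotation, start codons and sequences came from GENCODE release 21 of the mouse (M21), and overlaps and biotypes also from RefSeq. Python 3.11.15, numpy 2.4.6, pandas 2.3.3 and matplotlib 3.10.9 were used. No column of per-sample values was left unused (0).

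Named lincRNAs are the 12 with the highest control footprints, per drug the 4 that decreased most and the 4 that decreased least or increased, those the study discusses, and those of 5 gene groups above the cutoff. The members, lists and rules were chosen with earlier results of these data known. The methods call the replicates biological. Precision is set by 2 libraries per condition. Replicate reads can differ by more than counting error, as for B230208H11Rik with 1597 and 4392 control reads.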

Additional observations from a re-analysis of the deposited data

How the results depend on the processing

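The number of member ORFs called was 157, 105, 93, 87 and 100, against control for DMDA-PatA, harringtonine and puromycin and then for DMDA-PatA against harringtonine and against puromycin. In the same order it was 89, 136, 111, 44 and 35 with TMM normalization. In the same order it was 133, 71, 59, 57 and 78 with DESeq2. In the same order it was 257, 149, 94, 98 and 127 with no filter. In the same order it was 23, 14, 12, 20 and 18 with 1 ORF per transcript. In the same order it was 149, 99, 84, 74 and 91 with a replicate block. Leaving out 1 library gave 77 to 160, 43 to 110, 45 to 105, 50 to 91 and 60 to 105, the lowest of the first 3 all without control replicate 1, that of DMDA-PatA against harringtonine without DMDA-PatA replicate 1 and that of DMDA-PatA against puromycin without puromycin replicate 2. A lone library was then assumed to vary like the other conditions. The median fold inhibition by DMDA-PatA was 7.61 and became 0.380 (equal reads on coding sequences) and 5.56 to 10.3 without 1 library. The median fold inhibition by harringtonine was 2.85 and became 2.39 (mean control above 20), 1.65 (1 ORF per lincRNA), 0.421 (equal reads on coding sequences), 3.36 (size factors exchanged), 2.70 (without lincRNAs overlapping coding exons), 3.18 (without B230208H11Rik, Gm42418 and Gm26917) and 2.35 to 3.74 without 1 library. The median fold inhibition by puromycin was 2.07 and became 1.47 (1 ORF per lincRNA), 0.362 (equal reads on coding sequences) and 1.89 to 2.59 without 1 library. The 333 ORFs above the cutoff became 154 at a length of at least 200 nt and 297 to 375 with 1 control library. The pooled median share on the ORF, 58.5% of footprints and 21.9% of transcriptome reads, became 65.5% and 30.1% above 20 footprints, and 61.5 to 63.7% and 21.6 to 23.0% with 1 library. Under TMM, 40 log2 fold changes of named ORFs changed sign. These were, with DMDA-PatA, 1700001L05Rik 1.86, 1700020I14Rik 2.94, 1810058I24Rik 1.06, 4933404O12Rik 2.65, AU020206 4.198, Epb41l4aos 3.15, Gm26829 1.12, Gm26917 3.16, Gm2694 3.04, Lncenc1 2.31, Neat1 2.93, Platr20 0.26, Platr22 3.35, Platr26 1.19, Platr28 1.25, Platr3 2.18, Pvt1 3.38, Mtln ORF 1.89. With harringtonine, 1110019D14Rik 1.86, 1700001L05Rik 2.70, 1810058I24Rik 0.30, 4930461G14Rik 2.21, 5430416N02Rik 2.92, Gm1070 0.046, Gm26917 2.14, Gm38399 1.14, Platr26 1.55, Gm14005 1.73. With puromycin, 1110019D14Rik 0.95, 1700001L05Rik 1.98, 1810058I24Rik 1.05, 4930461G14Rik 1.95, Gm1070 0.75, Gm26829 1.37, Gm26917 2.39, Gm38399 2.21, Platr20 1.24, Platr26 0.70, Platr28 0.071, Platr3 0.61. Under limma, 5 log2 fold changes of named ORFs changed sign. These were, with DMDA-PatA, AU020206 0.055, H19 -0.11, Mir17hg -0.10. With harringtonine, Platr3 -0.024. With puromycin, Gm26917 0.17. Under the replicate block, 2 log2 fold changes of named ORFs changed sign. These were, with DMDA-PatA, AU020206 0.020. With puromycin, Gm26917 0.045. Under exchanged size factors, 5 log2 fold changes of named ORFs changed sign. These were, with DMDA-PatA, AU020206 0.22. With harringtonine, Gm26829 -0.11, Gm42418 -0.060, H19 -0.035, Platr3 -0.27. The replicate block also ended 6 calls on named ORFs (edgeR adjusted p), 1110019D14Rik with puromycin (0.0763), Gm26917 with DMDA-PatA (0.121), Neat1 with DMDA-PatA (0.0587), Platr20 with puromycin (0.0684), Platr22 with puromycin (0.0679) and Gm14005 with harringtonine (0.0583). Leaving out 1 library, 22 of these values changed sign within their ranges. These were, with DMDA-PatA, 5430416N02Rik -0.37 to 0.65, AU020206 -0.55 to 0.68, Epb41l4aos -3.75 to 0.072, Gm26917 -1.91 to 0.48, Gm42418 -0.50 to 0.84, H19 -0.80 to 0.58, Mir17hg -1.07 to 0.81, Platr22 -1.55 to 0.37. With harringtonine, 1700001L05Rik -0.70 to 0.18, 5430416N02Rik -0.53 to 0.50, Epb41l4aos -1.18 to 1.02, Gm26829 -0.26 to 0.52, Gm26917 -1.58 to 0.80, Gm42418 -0.12 to 0.46, Mir17hg -0.25 to 0.92, Platr22 -0.25 to 1.67, Platr3 -0.74 to 0.61. With puromycin, 5430416N02Rik -0.14 to 0.88, Epb41l4aos -0.21 to 0.84, Gm26917 -0.91 to 1.49, H19 -0.14 to 0.78, Lncenc1 -0.12 to 0.18. The cause was not tested. Same-numbered samples deviated together with correlations of -0.04 to 0.0534 between conditions, and the labels tie no batch to a number, so the replicates share only a number. Most members hold too few reads for a test, and for those a difference was not detectable at this depth.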
